A study of Homo sapiens with 25 samples.

Results

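NRAS, HRAS, RALA, RALB, ARAF, BRAF and NF1 are 7 of the 59427 gene names measured by RNA sequencing in 25 libraries of 2 human lung cancer lines. They were taken by name as RAS and RAL GTPases, RAF kinases and the RAS inhibitor NF1. RALA was chosen by its level in A549, where it is low with 1 antisense oligonucleotide (ASO), candidate 240 ASO3, and the others were chosen beside it by name. The values of that contrast are therefore given for all 7 genes as a description, with no test. All 7 genes averaged at least 1 TPM, a unit of transcript abundance corrected for transcript length and library size, in both lines and so passed the filter on low values.

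The established lines were A549, a lung adenocarcinoma line, and NCI-H460, a large cell lung carcinoma line. Cells of each line were transfected with 25 nM of an ASO, a short oligonucleotide made to pair with a chosen RNA, and RNA was taken 24 h later. The 5 groups of each line were candidate 42 ASO3, candidate 42 ASO5, candidate 240 ASO1, candidate 240 ASO3 and a control ASO, which the labels give as a neutral control of Qiagen. The 2 candidates are the long noncoding RNAs named in the labels by number, each with 2 ASOs. A549 has 3 libraries per group, numbered 3, 4 and 5, and NCI-H460 has 2, numbered 1 and 2. All cells had been transfected with an ASO, and no untransfected cells were analysed here. No label states that the libraries within a group are separate cultures, so the p-values below measure only the spread between these libraries.

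RAS proteins are small GTPases that pass signals from growth factor receptors when GTP is bound. Exchange factors such as SOS1 load them with GTP, and GTPase-activating proteins such as neurofibromin, the product of NF1, return them to the inactive state. Active RAS recruits RAF kinases, which start the MEK and ERK kinase cascade, and also recruits exchange factors that load RALA and RALB. RAL proteins bind the exocyst, a complex that tethers secretory vesicles to the plasma membrane, and also act in endocytosis. RAS and RAL signalling is well known for its part in lung adenocarcinoma.

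The messages of RALA and RALB encode proteins of 206 residues each. In an alignment of the GENCODE release 29 coding sequences, RALA and RALB were identical at 73.9% of columns, and their translated proteins at 82.1%. The longest run of bases shared by both coding sequences has 13 bases and lies in exon 5 of both transcripts. It is shown with 20 bases on each side, a stretch that reaches back into exon 4, because it marks how short the exact matches between the paralogues are. The shared run is in capitals, and both stretches are on the plus strand of GRCh38.
RALA: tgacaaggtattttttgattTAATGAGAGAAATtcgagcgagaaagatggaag
RALB: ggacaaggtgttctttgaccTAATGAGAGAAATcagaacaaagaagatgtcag
The RALA stretch covers coding bases 492 to 544, at chr7:39696853-39696859 in exon 4 and chr7:39706123-39706168 in exon 5. The RALB stretch covers coding bases 495 to 547, at chr2:120289751-120289757 in exon 4 and chr2:120293141-120293186 in exon 5. No 31-base word of the annotated transcripts was shared between RALA and RALB. NRAS and HRAS were identical at 73.0% of coding columns, with a longest shared run of 14 bases. For the RAF kinases ARAF and BRAF the figures were 49.8% and 21 bases.

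Per the authors' deposited tables, the genes lie in the hg38 build as follows. RALA is at chr7:39623565-39708120 on the plus strand and RALB at chr2:120240064-120294710 on the plus strand. NRAS is at chr1:114704469-114716771 on the minus strand and HRAS at chr11:532242-537287 on the minus strand. ARAF is at chrX:47561100-47571920 on the plus strand, BRAF at chr7:140719327-140924929 on the minus strand and NF1 at chr17:31094927-31382116 on the plus strand.

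BRAF values carry more doubt than the others, since 9.87% of the 31-base words of its annotated transcripts also occur in other genes. Of these words, 1209 are shared with NDUFB2, a gene of the mitochondrial respiratory chain that overlaps BRAF on the opposite strand. NDUFB2 stood at 449.9 to 879.6 TPM in A549, against 2.35 to 6.61 TPM for BRAF in that line, and the strand setting of the counting is not stated. The shared fraction was 4.95% for NF1, 3.69% for RALA, 1.02% for NRAS, 0.0527% for HRAS, and 0.028% for ARAF, and no such word was found for RALB. The pseudogenes BRAFP1, NF1P1 and NF1P2 and the RALA-like AC068993.1 and AC002486.2 were listed at 0 in every library.

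Facts of the libraries that touch these results are few. The TPM columns summed to 924350 to 1179224, so the deposited values had been rescaled between libraries, and the depth in reads is unknown. NCI-H460 candidate 42 ASO3 replicate 1 stood apart, with 23879 names above 0, the fewest of the 25 libraries, and a column sum of 1173905. Its companion, replicate 2, summed to 995817 and the NCI-H460 control libraries to 966019 and 974926. In A549 the next fewest names, 25004, came with a sum of 1179224, in candidate 240 ASO3 replicate 3. The 5 epithelial keratin and adhesion markers all averaged at least 1 TPM in A549, whereas in NCI-H460 EPCAM and CDH1 were below 1 TPM and KRT8, KRT18 and KRT19 were above it. Of 5 lung epithelial markers, only NAPSA averaged at least 1 TPM in A549 and none did in NCI-H460, where NKX2-1 did not exceed 0.104 TPM. Endothelial markers stayed below 1 TPM in both lines. Of the 5 leukocyte markers only CD14 averaged at least 1 TPM in either line, and of the 5 fibroblast markers 1 did in A549 and 3 in NCI-H460. In bulk RNA, fewer cells with a message and less message per cell cannot be told apart.

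Under control ASO the members differed widely in level. In A549 the order by TPM, a value per transcript length, was HRAS at 125 ± 30.1, ARAF at 47.9 ± 8.70, RALB at 47.6 ± 2.21, NRAS at 20.1 ± 3.45, RALA at 16.6 ± 2.41, NF1 at 16.4 ± 6.54 and BRAF at 3.94 ± 1.44 (SD, n = 3). In NCI-H460 the order was HRAS at 77.2 ± 4.34, ARAF at 56.1 ± 1.21, RALB at 25.3 ± 1.46, RALA at 24.6 ± 1.92, NRAS at 16.4 ± 0.761, NF1 at 10.3 ± 0.612 and BRAF at 4.27 ± 0.933 (SD, n = 2). The ranges of ARAF and RALB overlapped in A549, as did those of NRAS, RALA and NF1, and in NCI-H460 those of RALB and RALA. HRAS was the highest and BRAF the lowest member in every library, save that RALA was below BRAF with candidate 240 ASO3 in A549.

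**Figure D1:**
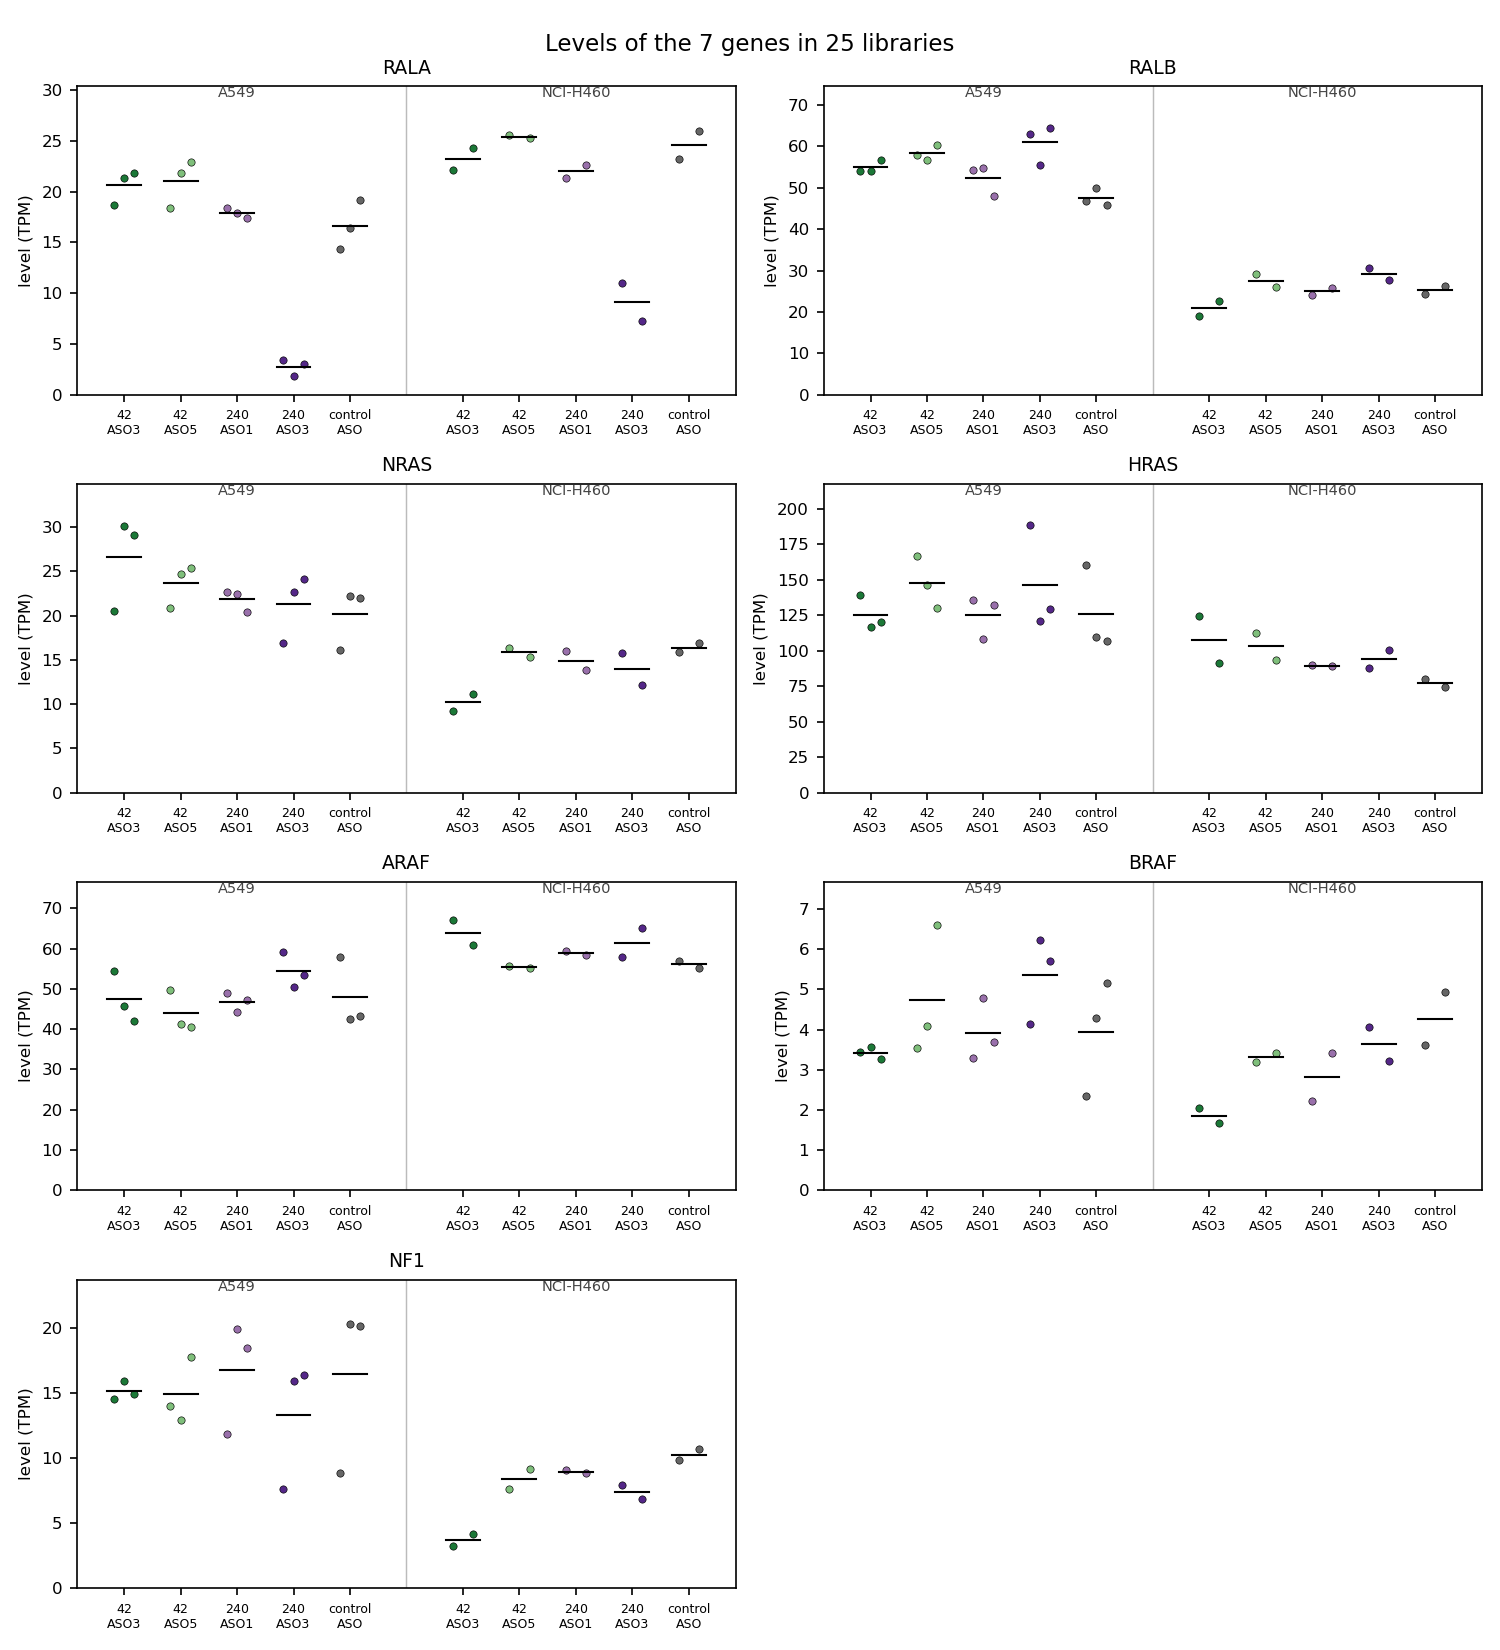
Level of each of the 7 genes in TPM (vertical axes, linear from 0) in every library; points are libraries, short lines are group means, and 42 and 240 are the candidates. RALA stands at 1.79 to 3.43 TPM with candidate 240 ASO3 in A549 and at 7.28 to 10.95 TPM in NCI-H460, apart from the other groups of each line.

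RALA, a GTPase that acts in exocytosis, was low with candidate 240 ASO3 in both lines. In A549 it had 3.43, 1.79 and 3.01 TPM with candidate 240 ASO3, against 14.3, 16.4 and 19.2 TPM with control ASO. The groups did not overlap, and the highest ASO3 library lay far below the lowest control library. On the log2(TPM + 0.5) scale, which understates the change of low genes, the difference was -2.43 (SE 0.18). This contrast chose the gene, so it is not tested. Of all 14740 genes tested 13.8% were called there (2036 genes, and 3696 with the replicate number as a block), and 13.2% had all 3 ASO3 libraries below all 3 control libraries. RALA ranked 24 from the bottom by log2 fold change. The summed TPM of the 5 epithelial markers, all of them above 1 TPM on average, was 4892 to 6110 with candidate 240 ASO3 and 6684 to 7723 with control ASO, and its part in the RALA values was not tested. The next members by size in the same contrast were BRAF at 0.44 (SE 0.27) and RALB at 0.35 (SE 0.088).

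NCI-H460 gave a comparison that the choice of RALA did not use. RALA had 10.95 and 7.28 TPM with candidate 240 ASO3, against 23.2 and 25.9 TPM with control ASO. Both ASO3 libraries lay below both control libraries, as in 32.5% of genes. The log2 fold change was -1.41 (SE 0.17) with an adjusted p of 0.00375 by limma, where 5.66% of 13774 genes tested were called and 3.01% were called lower. The summed epithelial markers were 4086 to 4229 TPM with candidate 240 ASO3 and 3210 to 3280 TPM with control ASO, the opposite order to that in A549. RALA was the 79th lowest of those genes by fold change and the only 1 of the 7 members called. The authors' deposited table gives a log2 fold change of -1.42 and a q-value of 0.0474 for RALA in this comparison. RALA was called with each of the 4 libraries left out in turn, at log2 fold changes of -1.69 to -1.13, and in all 11 alternatives the limma adjusted p lay between 0.00333 and 0.0454.

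The second ASO against the same candidate left RALA near control. With candidate 240 ASO1, RALA had 18.4, 17.9 and 17.4 TPM in A549 and 21.4 and 22.6 TPM in NCI-H460. Its log2 fold change against control ASO was 0.11 (95% interval -0.27 to 0.49) in A549 and -0.15 (95% interval -0.53 to 0.22) in NCI-H460. Neither was called, but limma called no gene at all with this ASO, 0.0% of 14740 in A549 and 0.0% of 13774 in NCI-H460. In NCI-H460 both ASO1 libraries lay just below both control libraries, as in 24.7% of genes. Set directly against ASO1, ASO3 gave a log2 difference of -1.25 (SE 0.17) for RALA in NCI-H460, with a limma adjusted p of 0.00664 and 2.92% of genes called. That call was lost without either of the ASO1 libraries, at adjusted p of 0.0612 without replicate 1 and 0.0732 without replicate 2. In A549 the same difference was -2.54 (SE 0.18), given as a description because it uses the libraries that chose RALA, and 16.7% of genes were called (2465, and 4411 with the replicate block).

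The 2 ASOs against candidate 42 did not give a call for RALA in either line. With candidate 42 ASO3, RALA had 18.7, 21.4 and 21.8 TPM in A549 and 22.1 and 24.3 TPM in NCI-H460. With candidate 42 ASO5 it had 18.4, 21.8 and 22.9 TPM in A549 and 25.5 and 25.3 TPM in NCI-H460. Against control ASO the log2 fold changes were 0.31 and 0.33 in A549 and -0.08 and 0.05 in NCI-H460, for ASO3 and ASO5 in that order. The ranges of ASO and control libraries overlapped in all 4 comparisons.

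RALB, the paralogue linked to cell survival signalling and autophagy, was not low where RALA was. In A549 it had 63.0, 55.5 and 64.4 TPM with candidate 240 ASO3, against 46.8, 50.1 and 45.8 TPM with control ASO. All 3 ASO3 libraries lay above all 3 control libraries, as in 12.2% of genes. In NCI-H460 it had 30.6 and 27.6 TPM with candidate 240 ASO3, against 24.2 and 26.3 TPM with control ASO. Here too the ASO3 libraries lay above the control libraries, as in 28.0% of genes, but the log2 fold change of 0.20 (95% interval -0.07 to 0.47) had a limma adjusted p of 0.333.

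RALB also lay above control in A549 with both ASOs against candidate 42, with no overlap and no call. Of all genes 13.3% lay above control in this way with ASO3 and 11.6% with ASO5. It had 54.1, 54.0 and 56.8 TPM with candidate 42 ASO3 and 58.1, 56.8 and 60.4 TPM with candidate 42 ASO5. The log2 fold changes were 0.21 (limma adjusted p 0.169) for ASO3 and 0.29 (limma adjusted p 0.0899) for ASO5. The 4 comparisons of a line use the same control libraries, so these values are not independent of each other. With candidate 240 ASO1, RALB had 54.4, 54.8 and 48.0 TPM, which overlapped the control range.

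The share of RALA in the summed TPM of RALA and RALB shows both genes at once. In A549 it was 3.13% to 5.16% with candidate 240 ASO3 and 23.5% to 29.5% with control ASO. In NCI-H460 it was 20.9% to 26.4% with candidate 240 ASO3 and 48.9% to 49.6% with control ASO. The share in NCI-H460 with candidate 240 ASO3 thus reached about the level that A549 has under control ASO. The summed TPM of the pair was 63.7 ± 5.55 with candidate 240 ASO3 and 64.2 ± 2.74 with control ASO in A549 (SD, n = 3). In NCI-H460 the sum was 38.2 ± 4.68 with candidate 240 ASO3 and 49.9 ± 3.38 with control ASO (SD, n = 2).

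**Figure D2:**
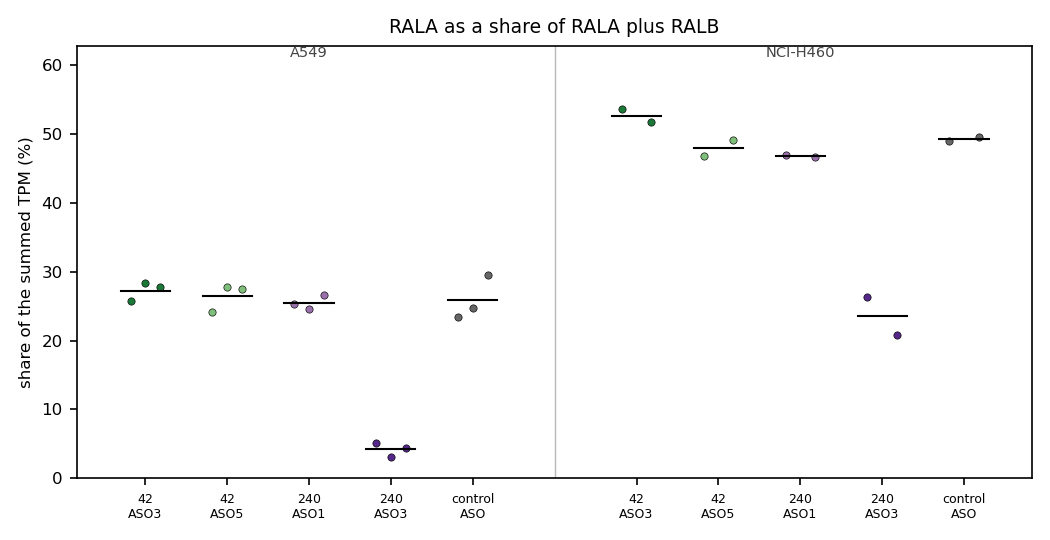
RALA as a percentage of the summed TPM of RALA and RALB (vertical axis, linear from 0) in each of the 25 libraries; points are libraries, short lines are group means, and 42 and 240 are the candidates. The share is 3.13% to 5.16% with candidate 240 ASO3 in A549 and 20.9% to 26.4% in NCI-H460, below every other group of the same line.

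With candidate 240 ASO3, the nearest protein-coding neighbours of RALA averaged above control in A549 and below it in NCI-H460. Neither was as far below control as RALA. YAE1, which lies 13163 bp from RALA on the same strand, averaged 21.6 TPM with candidate 240 ASO3 and 19.1 TPM with control ASO in A549. CDK13, a transcription kinase gene 241522 bp away, averaged 15.4 TPM with candidate 240 ASO3 and 13.9 TPM with control ASO there. In NCI-H460 YAE1 averaged 19.2 TPM with candidate 240 ASO3 and 21.4 TPM with control ASO. CDK13 averaged 9.30 TPM with candidate 240 ASO3 and 10.8 TPM with control ASO in that line. For both neighbours the ASO3 libraries there lay below both control libraries, as in 32.5% of genes. The ranges were 17.8 to 20.7 against 20.9 to 21.8 TPM for YAE1 and 8.28 to 10.3 against 10.5 to 11.1 TPM for CDK13. The antisense transcript AC004837.2, which overlaps RALA on the opposite strand, averaged at most 0.189 TPM in any group.

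The 5 genes whose pattern over the 25 libraries was most like that of RALA were found among 12760 genes, after the mean of each line was taken off. They were PDK3, a kinase of the pyruvate dehydrogenase complex, with a Pearson r of 0.98, and MCM6, a subunit of the replicative helicase, with 0.97. MLF1, FASTKD2, a mitochondrial RNA-binding protein gene, and SPATS2 each had 0.97. With candidate 240 ASO3 these 5 stood at 10.6% to 33.3% of their control mean in A549 and at 21.5% to 56.4% in NCI-H460. The libraries share the ASO groups, so the high r rests largely on the candidate 240 ASO3 libraries, and it is a description. Among the other members r to RALA ran from -0.56 for ARAF to 0.23 for NRAS.

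With candidate 42 ASO3 in NCI-H460, 4 of the 7 members were called, against 46.0% of all 13774 genes tested there. NF1, NRAS and BRAF fell and HRAS rose. Calls were so common in this comparison, with 13.2% of genes higher and 32.8% lower, that 3 members lower and 1 higher is near the background. The median log2 fold change was -0.27 over the members and -0.20 over all genes tested. Under median-of-ratios scaling of the libraries the all-gene median was -0.00, and 50.1% of calls were higher, against 28.7% as deposited. Genes called numbered 6332. Fewer were called without ASO3 replicate 1, without control replicate 1 or without control replicate 2, and more without ASO3 replicate 2. ASO3 replicate 1 was the library with the fewest names above 0, and its part in the calls was not tested.

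NF1, the gene of the RAS inhibitor neurofibromin, had 3.28 and 4.20 TPM with candidate 42 ASO3, against 9.83 and 10.7 TPM with control ASO in NCI-H460. Its log2 fold change was -1.35 (SE 0.16, limma adjusted p 0.000409). Both ASO3 libraries lay below both control libraries, as in 49.1% of genes, and the call held in all 11 alternatives, at adjusted p of 0.000266 to 0.0098.

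BRAF, the RAF kinase with the strongest basal activity, had 2.05 and 1.67 TPM with candidate 42 ASO3, against 3.61 and 4.92 TPM with control ASO. The log2 fold change was -1.01 (SE 0.24, limma adjusted p 0.00853). NRAS had 9.26 and 11.1 TPM with candidate 42 ASO3, against 15.8 and 16.9 TPM with control ASO, a log2 fold change of -0.66 (SE 0.15, limma adjusted p 0.00741). For both genes the 2 ASO3 libraries lay below both control libraries, as in 49.1% of genes. NDUFB2, which overlaps BRAF, went the other way, at 604.8 to 820.8 TPM with candidate 42 ASO3 and 545 to 547.3 TPM with control ASO. Without control replicate 2 the limma adjusted p rose to 0.0721 for BRAF and 0.0518 for NRAS, and over all 11 alternatives it ranged from 0.00549 to 0.0721 for BRAF and from 0.00519 to 0.0518 for NRAS.

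HRAS, the highest member, had 124 and 91.4 TPM with candidate 42 ASO3, against 80.2 and 74.1 TPM with control ASO. The log2 fold change was 0.46 (SE 0.15, limma adjusted p 0.0327). The ASO3 libraries lay above the control libraries, as in 25.7% of genes, but the adjusted p ranged from 0.00302 to 0.188 over 11 alternatives. The call was lost without ASO3 replicate 1 (0.188), without control replicate 1 (0.0763) and without control replicate 2 (0.154), as well as with no filter on low values (0.112), with libraries scaled to an equal sum (0.052) and in a fit of the compared groups alone (0.0865).

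The other 3 members were not called in NCI-H460 with candidate 42 ASO3. RALB had 19.1 and 22.7 TPM with candidate 42 ASO3, against 24.2 and 26.3 TPM with control ASO, at a limma adjusted p of 0.0866. It was called under scaling to an equal sum (0.0458) and without ASO3 replicate 2 (0.0231), while median-of-ratios scaling gave 0.668. ARAF, a RAF kinase of weak activity, had 67.0 and 60.8 TPM with candidate 42 ASO3, against 56.9 and 55.2 TPM with control ASO, at 0.131. ARAF was called under median-of-ratios scaling (0.0128) and without ASO3 replicate 2 (0.0492). For RALA the log2 fold change of -0.08 became 0.13 under median-of-ratios scaling, with no call under either. The authors' deposited table gives q-values of 0.0111 to 0.0415 for all 7 members in this comparison, including RALA at a log2 fold change of -0.01.

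**Figure D3:**
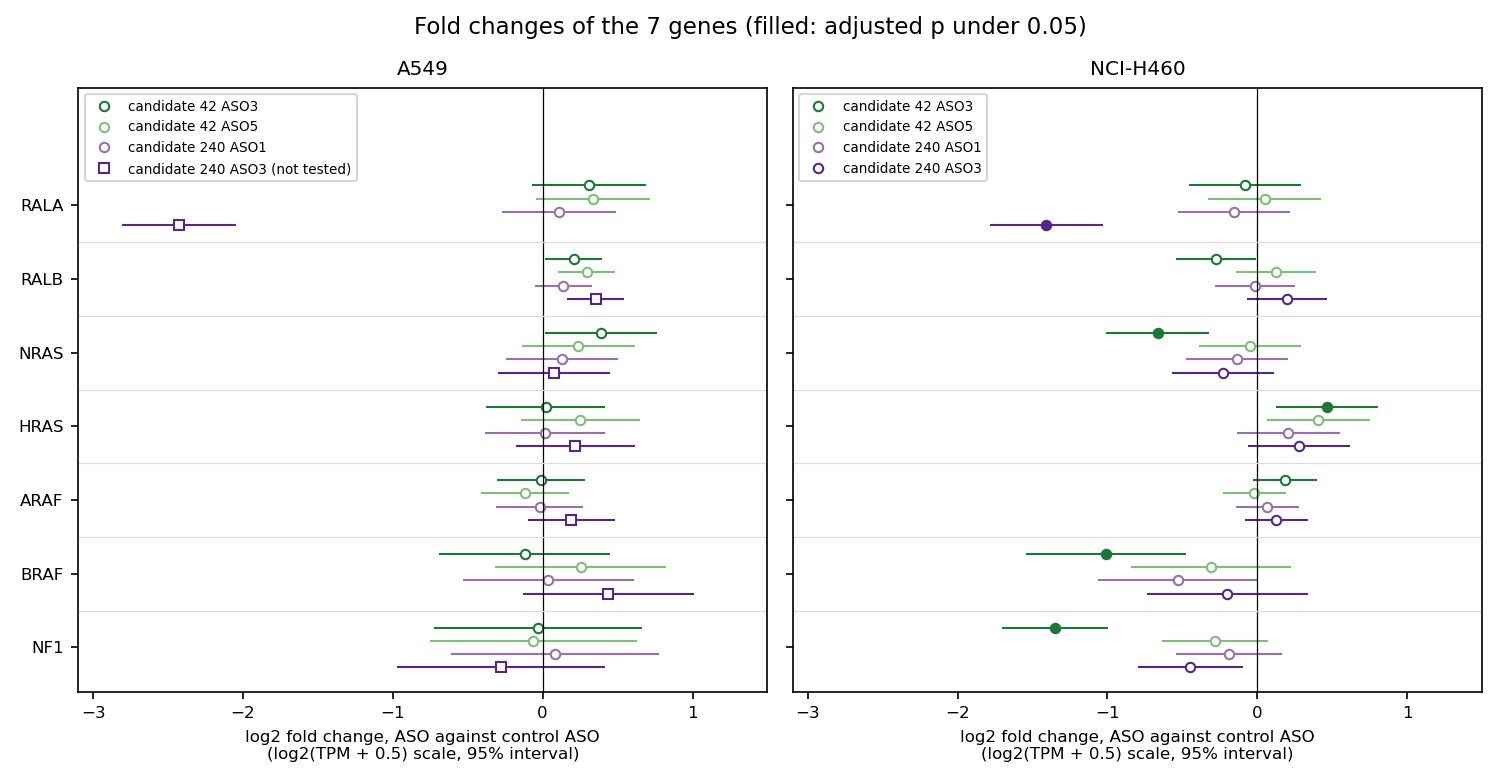
Log2 fold change of each member, ASO against control ASO on the log2(TPM + 0.5) scale (horizontal axes), with 95% intervals from limma; filled points were called at an adjusted p under 0.05, and squares mark the contrast that chose RALA and was not tested. In NCI-H460 the filled points are RALA with candidate 240 ASO3 and NRAS, HRAS, BRAF and NF1 with candidate 42 ASO3, while no tested point is filled in A549.

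In A549 none of the 21 tests of a member with candidate 42 ASO3, candidate 42 ASO5 or candidate 240 ASO1 gave a call by limma. Those of RALA use the A549 control libraries, which entered its choice, so they are not independent of it. Of the 21 tests, 3 had an unadjusted p under 0.05, namely NRAS and RALB with candidate 42 ASO3 and RALB with candidate 42 ASO5. At that threshold stood 3510, 2418 and 267 of all 14740 genes with candidate 42 ASO3, candidate 42 ASO5 and candidate 240 ASO1, so nothing is read from these 3. The shares of all genes called were 10.1%, 3.82% and 0.0% in these comparisons. NRAS had 20.6, 30.1 and 29.1 TPM with candidate 42 ASO3, against 16.2, 22.2 and 22.0 TPM with control ASO. In each group the library numbered 3 was the lowest. The log2 fold change was 0.39 (95% interval 0.01 to 0.76, limma adjusted p 0.194), and with the replicate number as a block the adjusted p was 0.0325. For RALB with candidate 42 ASO5 the block gave 0.0372. No label pairs the libraries of candidate 42 and control ASO, so these 2 calls rest on the replicate number. The deviations of same-numbered libraries from their group means correlated at 0.09 to 0.39 for ASO3 with control and 0.02 to 0.32 for ASO5 with control. What the number marks is not known.

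The libraries numbered 3 of A549 stood apart for NF1 and HRAS, most in the candidate 240 ASO3 and control groups. NF1 had 7.65 TPM in library 3, against 15.9 and 16.4 TPM in libraries 4 and 5, of candidate 240 ASO3. In the control group it had 8.88 TPM in library 3 and 20.3 and 20.1 TPM in libraries 4 and 5. With candidate 240 ASO1 it had 11.9 TPM in library 3 and 19.9 and 18.4 TPM in libraries 4 and 5. HRAS went the other way, with 188 TPM in library 3 of candidate 240 ASO3 and 121 and 129 TPM in its companions, and 160 TPM in library 3 of the control group and 109 and 107 TPM in its companions. The candidate 42 groups did not show this for NF1, with 14.5 TPM in library 3 and 15.9 and 14.9 TPM in libraries 4 and 5 of ASO3, and 14.0 TPM in library 3 and 12.9 and 17.8 TPM in libraries 4 and 5 of ASO5. HRAS was highest in library 3 of these groups too, at 139 against 117 and 120 TPM with ASO3 and 166 against 146 and 130 TPM with ASO5. With candidate 240 ASO1 HRAS had 136 TPM in library 3 and 108 and 132 TPM in libraries 4 and 5. The spread between libraries was wide for NF1, whose 95% intervals in A549 ran from -0.72 to 0.67 with candidate 42 ASO3 and from -0.75 to 0.63 with candidate 42 ASO5 on the log2 scale. Changes of that size would not be seen here.

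In NCI-H460 no member was called with candidate 42 ASO5 or candidate 240 ASO1, where limma called 0.508% and 0.0% of all genes. At an unadjusted p under 0.05 there was 1 member with candidate 42 ASO5, HRAS, and 0 with candidate 240 ASO1, beside 2093 and 493 of all 13774 genes. HRAS had 112 and 93.7 TPM with candidate 42 ASO5, 89.5 and 88.8 TPM with candidate 240 ASO1 and 87.8 and 100.1 TPM with candidate 240 ASO3, all above the control libraries at 80.2 and 74.1 TPM. So were 29.1%, 22.1% and 28.0% of all genes in these comparisons, in the same order. None of these 3 was called, at log2 fold changes of 0.41, 0.21 and 0.28. NF1 lay below control with candidate 240 ASO3, at 7.96 and 6.88 TPM against 9.83 and 10.7 TPM, with a log2 fold change of -0.45 and a limma adjusted p of 0.126. The 4 ASO groups share the same 2 control libraries.

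The 2 ASOs against candidate 42 were also set against each other. In NCI-H460, ASO5 gave higher values than ASO3 for 4 of 7 members, where 33.3% of genes were called and 27.7% were higher. Under median-of-ratios scaling 52.3% of calls were higher, against 83.1% as deposited, and NRAS, RALB and BRAF lost their calls (0.0623, 0.263 and 0.126). ARAF was then called lower with ASO5, at a log2 difference of -0.43 (limma adjusted p 0.016), and also without ASO3 replicate 2 (0.0444), but not as deposited. NF1 had 7.59 and 9.19 TPM with ASO5 and 3.28 and 4.20 TPM with ASO3, a log2 difference of 1.07 (SE 0.16, limma adjusted p 0.00188). The differences were 0.62 for NRAS (0.0142), 0.40 for RALB (0.0305) and 0.70 for BRAF (0.0489). NRAS, RALB and BRAF each lost the call without either ASO5 library, NRAS and RALB also without ASO3 replicate 1, and BRAF without either ASO3 library. Their adjusted p values then ran from 0.0566 to 0.075 for NRAS, from 0.07 to 0.159 for RALB and from 0.0821 to 0.18 for BRAF. In A549 none of the 7 was called between these ASOs, where limma called 10.7% of genes (1570, and 3152 with the replicate block). None of the 7 had an unadjusted p under 0.05 there, beside 3564 of all 14740 genes.

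Under control ASO, limma called a difference between A549 and NCI-H460 for RALB and HRAS, where 54.9% of 14769 genes tested were called. RALA is left out of the test, because the A549 control libraries entered its choice. RALB was higher in A549, at 46.8, 50.1 and 45.8 TPM, against 24.2 and 26.3 TPM in NCI-H460 (log2 difference 0.90, SE 0.096, limma adjusted p 1.53e-07). HRAS was higher in A549 by 0.67 (SE 0.19, limma adjusted p 0.00617), while the log2 difference of RALA was -0.56 (SE 0.19), given as a description. Of all genes 36.4% were called higher and 18.4% lower. In none of RALB, HRAS and RALA did the libraries of the lines overlap, as in 68.7% of genes. The median of all genes was 0.21 in this contrast and 0.00 under median-of-ratios scaling. Under that scaling the share of calls that were higher was 51.6%, against 66.4% as deposited. HRAS then lost its call (0.0913), as it did without NCI-H460 control replicate 2 (0.0548). ARAF, at a log2 difference of -0.46 under median-of-ratios scaling, was called lower in A549 there (0.014), with libraries scaled to an equal sum (0.0324) and without A549 control replicate 3 (0.0121), but not as deposited. NF1 was called higher in A549 only without A549 control replicate 3, at 0.95 (0.00749), against 0.56 (0.14) with all libraries. The 2 lines carry different replicate numbers, so line and any difference in handling cannot be told apart.

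The responses of the 2 lines were compared as an interaction, with the NCI-H460 response taken from the A549 response. For RALA these differences also use the A549 control libraries, which entered its choice. For candidate 42 ASO3 the difference was called for 3 of 7 members, where 19.7% of 14769 genes were called and 15.5% were higher. NRAS differed by 1.05 (SE 0.26, limma adjusted p 0.0123), RALB by 0.48 (SE 0.14, limma adjusted p 0.0234) and NF1 by 1.32 (SE 0.45, limma adjusted p 0.0451). All 3 stood higher relative to control in A549 than in NCI-H460. Of all calls 78.6% were higher, and 45.7% under median-of-ratios scaling, where NRAS alone of the 3 stayed called. None of the 3 was called without NCI-H460 candidate 42 ASO3 replicate 1 (adjusted p 0.0998, 0.175 and 0.206 for NRAS, RALB and NF1) or without NCI-H460 control replicate 2 (0.0556, 0.101 and 0.129). NRAS alone stayed called without A549 candidate 42 ASO3 replicate 5. NF1 was also lost without each of 3 further libraries, at 0.11 without A549 control replicate 3, 0.0847 without A549 candidate 42 ASO3 replicate 4 and 0.0945 without NCI-H460 control replicate 1.

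No member differed between the lines in its response to candidate 42 ASO5 or candidate 240 ASO1 by limma. None had an unadjusted p under 0.05 there, beside 968 and 410 of all 14769 genes, and 0.0339% and 0.0% of all genes were called. For candidate 240 ASO3 the difference is a description, since it uses the libraries that chose RALA. RALA differed by -1.02 (SE 0.27), the response being the larger in A549, and 1.21% of genes were called. BRAF had 4.13, 6.22 and 5.71 TPM with candidate 240 ASO3 in A549, each above the control mean of 3.94 TPM. In NCI-H460 it had 4.06 and 3.21 TPM with candidate 240 ASO3, each below the control mean of 4.27 TPM. The ASO and control libraries overlapped in both lines, and the difference between the responses was 0.64 (SE 0.39, 95% interval -0.18 to 1.46).

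The surrounding pathway was described with 9 lists of 97 genes in all. With candidate 42 ASO3 in NCI-H460, 5 of 82 tested genes rose and 47 fell, 63.4% in all against 46.0% of all genes. Under median-of-ratios scaling the split was 15 higher and 36 lower, beside 23.4% of all genes lower. Without ASO3 replicate 1 it was 4 higher and 39 lower of 84 tested genes, beside 24.2% of all genes lower. The list counts for this comparison are each to be set against 32.8% of all genes called lower as deposited. In A549 the same ASO gave 2 higher and 3 lower of 90 tested genes, 5.56% against 10.1% of all genes, of which 3.43% were higher and 6.63% lower. The list counts are descriptions, and no test was made of a list.

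**Figure D4:**
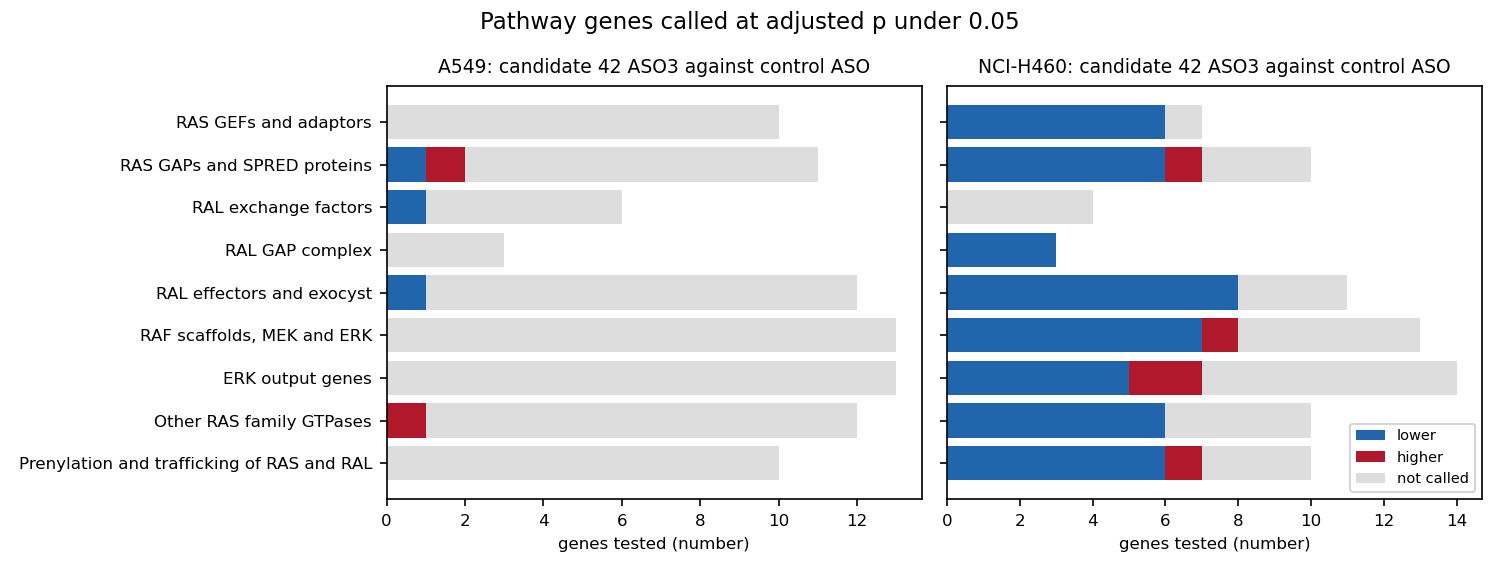
Number of tested genes of each of 9 pathway lists (horizontal axes) called lower, called higher or not called with candidate 42 ASO3 against control ASO, in A549 on the left and NCI-H460 on the right. In NCI-H460 all 3 genes of the RAL GAP complex and 8 of 11 RAL effectors and exocyst genes are lower, and none of the 4 RAL exchange factors is called.

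Among upstream activators of RAS, 6 of 7 tested exchange factors and adaptors fell with candidate 42 ASO3 in NCI-H460, and 5 of 7 under median-of-ratios scaling. PTPN11, the phosphatase SHP2 that promotes RAS activation, had 18.6 ± 6.10 TPM with candidate 42 ASO3 and 50.1 ± 1.28 TPM with control ASO (SD, n = 2; log2 fold change -1.44, limma adjusted p 0.000737). SOS1 fell by 0.96 on the log2 scale (0.0144), a call lost without ASO3 replicate 1 or control replicate 2. Of 10 tested RAS GAPs and SPRED proteins, which restrain RAS as NF1 does, 6 fell and 1 rose. SPRED1, a partner of neurofibromin, fell by 1.27 (0.000462) and RASA1 by 1.14 (0.000747).

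Around RALA and RALB, the 3 subunits of the RAL GAP complex, which switches both RAL proteins off, fell in NCI-H460 with candidate 42 ASO3, also under median-of-ratios scaling, and 2 of them without ASO3 replicate 1. RALGAPA1 fell by 1.22 on the log2 scale (limma adjusted p 0.000963) and RALGAPA2 by 1.01 (0.0108), the second of these losing its call without ASO3 replicate 1 or control replicate 1. Of 11 tested RAL effectors and exocyst genes 8 fell, and 5 fell and 1 rose under median-of-ratios scaling, with the exocyst subunit EXOC5 at 9.35 ± 2.54 TPM with candidate 42 ASO3 and 26.8 ± 0.558 TPM with control ASO (SD, n = 2; log2 fold change -1.50, limma adjusted p 0.000357). None of the 4 tested RAL exchange factors was called there, at a list median of -0.26.

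Downstream of RAF, 7 of 13 genes of the RAF scaffold, MEK and ERK list fell and 1 rose with candidate 42 ASO3 in NCI-H460, and 5 fell and 2 rose under median-of-ratios scaling. MAPK3, the kinase ERK1, was the gene that rose, by 0.58 on the log2 scale (limma adjusted p 0.0108). YWHAG, which encodes a 14-3-3 protein that binds RAF, had 82.5 ± 25.9 TPM with candidate 42 ASO3 and 166.9 ± 1.73 TPM with control ASO (SD, n = 2) and fell by 1.05 (0.0019).

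ERK output genes, whose messages ERK signalling is known to raise, were called in that comparison alone among the 8 with control ASO. There 5 of 14 fell and 2 rose, with a list median of 0.06 against -0.20 over all genes, and under median-of-ratios scaling 3 fell and 7 rose. DUSP6, a phosphatase that acts on ERK, fell by 1.00 (limma adjusted p 0.00313) and CCND1, the cyclin D1 gene, by 0.99 (0.000404). In A549 with candidate 240 ASO3, the contrast that chose RALA, 0 of 13 were called by limma, beside 13.8% of all genes. Of the 13, 3 had an unadjusted p under 0.05, beside 3953 of all 14740 genes. In NCI-H460, 0 of 14 were called with candidate 240 ASO3, beside 5.66% of all genes. Of the 14, 1 had an unadjusted p under 0.05, beside 3286 of all 13774 genes, so nothing is read from these counts. Whether calls of this list differ in number between ASOs was not tested.

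Of 10 tested other RAS family GTPases 6 fell with candidate 42 ASO3 in NCI-H460, and 5 under median-of-ratios scaling, beside 32.8% and 23.4% of all genes. RIT1 fell by 0.87 (limma adjusted p 0.000655) and RAP1B by 0.74 (0.00365). Of 10 genes that attach lipid anchors to RAS and RAL proteins or move them to membranes 6 fell and 1 rose, and 4 fell and 2 rose under that scaling. PGGT1B, a subunit of the enzyme that prenylates RALA and RALB, fell by 1.02 (0.0078) and LYPLA1, a depalmitoylating enzyme, by 0.93 (0.000822).

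In A549 fewer pathway genes were called. With candidate 42 ASO3, RASD1, a RAS-like GTPase induced by dexamethasone, rose to 5.77 ± 0.971 TPM, against 1.20 ± 0.196 TPM with control ASO (SD, n = 3; log2 fold change 1.88, limma adjusted p 3.87e-05). RALGPS1, an exchange factor for RAL proteins, fell to 1.395 ± 0.549 TPM, against 4.14 ± 0.586 TPM with control ASO (SD, n = 3; log2 fold change -1.33, limma adjusted p 0.0093). RASA3, a RAS GAP, fell by 0.67 (0.00925), a call lost with the compared groups alone (0.0609). SPRED3 rose by 0.91 (0.0151). SPRED3 lost its call without control replicate 5 or ASO3 replicate 5. With candidate 42 ASO5 RRAS2 rose by 0.58 (0.00518), a call lost with the compared groups alone (0.0767).

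For candidate 240 ASO3 in A549, the contrast that chose RALA, 5 of the 90 tested pathway genes were called higher and 5 lower, 11.1% against 13.8% of all genes (6.0% higher and 7.82% lower), and nothing is read from this count. MRAS averaged 4.17 ± 1.01 TPM with candidate 240 ASO3 and 9.71 ± 0.329 TPM with control ASO (SD, n = 3). RALGDS, an exchange factor that RAS uses to activate RAL, averaged 15.0 ± 2.29 TPM with candidate 240 ASO3 and 9.27 ± 1.16 TPM with control ASO, both with n = 3. RALGPS1, also a RAL exchange factor, went the other way. It averaged 1.69 ± 0.278 TPM with candidate 240 ASO3 and 4.14 ± 0.586 TPM with control ASO, both with n = 3. Of 6 tested RAL exchange factors 2 were called higher and 1 lower. With 1 library left out, the call of RALGDS was lost in 4 fits and that of RALGPS1 in 3. In NCI-H460 the same ASO gave 2 higher and 2 lower of 82 genes, 4.88% against 5.66% of all genes (2.65% higher and 3.01% lower). LYPLA2, a depalmitoylating enzyme, had 66.8 ± 0.979 TPM with candidate 240 ASO3 and 44.8 ± 0.939 TPM with control ASO there (SD, n = 2; log2 fold change 0.57, limma adjusted p 0.013). DAB2IP rose by 0.71 (0.039) and ZDHHC9 fell by 0.43 (0.0486). LYPLA2, DAB2IP and ZDHHC9 each lost the call without any 1 of the 4 libraries compared.

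EXOC4, the exocyst subunit also known as SEC8, was low with 3 of the 4 ASOs in each line. In A549 it had 14.4, 14.4 and 16.4 TPM with candidate 42 ASO3, 12.65, 13.6 and 15.4 TPM with candidate 42 ASO5 and 9.74, 8.60 and 10.6 TPM with candidate 240 ASO3, against 24.1, 30.5 and 29.9 TPM with control ASO. No library of these 3 ASOs reached the control range, whereas candidate 240 ASO1 gave 28.9, 31.45 and 35.1 TPM. With candidate 240 ASO3, 13.2% of all genes lay below control in this way. The log2 fold changes were -0.88 for candidate 42 ASO3 (limma adjusted p 0.000607) and -0.99 for candidate 42 ASO5 (0.000735). For candidate 240 ASO3 the fold change of -1.50 is given as a description.

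EXOC4 was given per library after its values in both lines were seen, so NCI-H460 is not an independent check. The lines share no library, and EXOC4 was low in NCI-H460 with the same 3 ASOs. It had 9.505 and 8.60 TPM with candidate 42 ASO3, 12.3 and 11.9 TPM with candidate 42 ASO5 and 11.4 and 9.03 TPM with candidate 240 ASO3, against 20.55 and 23.2 TPM with control ASO. With candidate 240 ASO1 it had 19.6 and 20.9 TPM. Both ASO libraries lay below both control libraries in 49.1% of all genes with candidate 42 ASO3 and in 32.5% with candidate 240 ASO3. On the log2 scale the fold changes were -1.23 for candidate 42 ASO3 (limma adjusted p 0.000309), -0.83 for candidate 42 ASO5 (0.0411) and -1.07 for candidate 240 ASO3 (0.00446). The call with candidate 42 ASO5 was lost without any 1 of the 4 libraries compared (0.195 to 0.339) and under the replicate block (0.0623), and that with candidate 240 ASO3 without control replicate 2 (0.0584). The 3 comparisons of a line share its controls.

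REPS1, whose protein works in endocytosis, was low with candidate 42 ASO5 in both lines. With this ASO limma called 3.82% of all genes in A549 and 0.508% in NCI-H460. REPS1 too was given per library after its values in both lines were seen. In A549 it had 5.86, 3.17 and 4.23 TPM with candidate 42 ASO5, against 14.3, 17.2 and 17.55 TPM with control ASO (log2 fold change -1.81, limma adjusted p 8.44e-05). In NCI-H460 it had 14.8 and 15.2 TPM with candidate 42 ASO5, against 31.5 and 33.1 TPM with control ASO (log2 fold change -1.08, limma adjusted p 0.00933). The groups were well apart in both lines, but in NCI-H460 the call was lost without any 1 of the 4 libraries compared, at adjusted p of 0.0752 to 0.104. The second ASO against candidate 42 gave 19.7, 19.2 and 20.9 TPM in A549 and 27.3 and 30.0 TPM in NCI-H460.

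**Figure D5:**
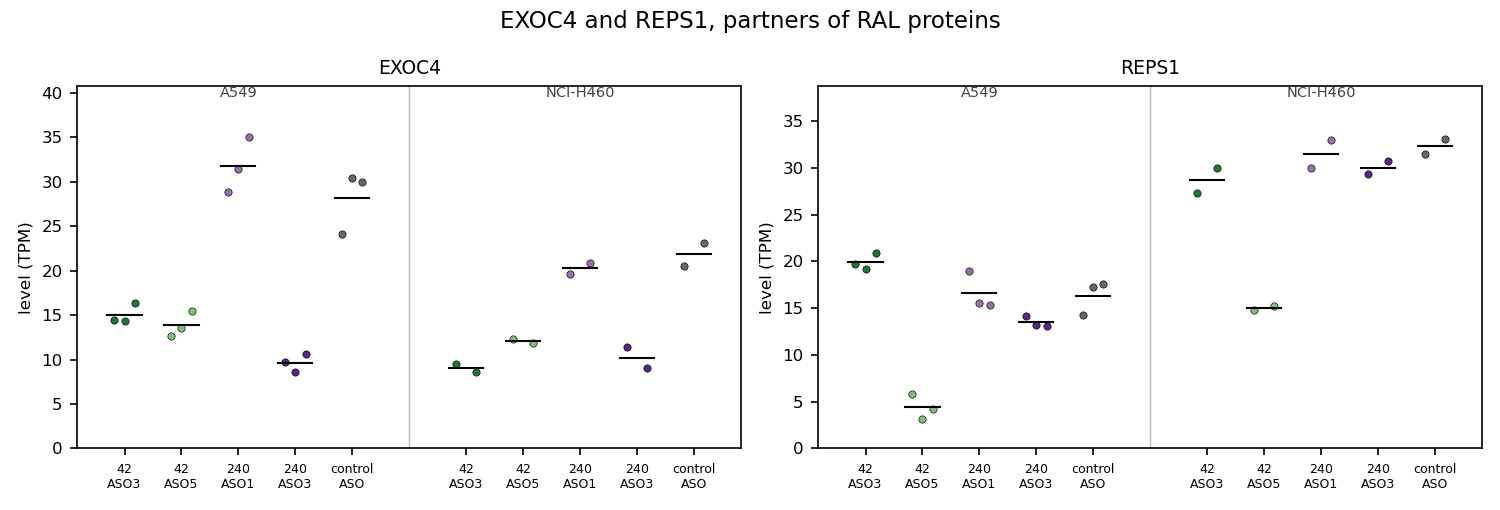
Level of EXOC4 and REPS1 in TPM (vertical axes, linear from 0) in every library; points are libraries, short lines are group means, and 42 and 240 are the candidates. EXOC4 is low with 3 of the 4 ASOs in each line, and REPS1 is low with candidate 42 ASO5, at 3.17 to 5.86 TPM in A549 and 14.8 to 15.2 TPM in NCI-H460.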

How the data were processed

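RNA of 25 libraries was sequenced after ASO transfection, with libraries made with the NEBNext Ultra kit per the labels' protocols. Per the submitters' processing notes, kallisto and sleuth 0.30 were used with build hg38. No source used here states the annotation release, the strand setting or how q-values were adjusted. The authors deposited 1 table of signal for each gene name, and its values are TPM that had been rescaled between libraries; TPM with a fixed sum had been assumed when the tests were chosen. The authors also deposited 8 tables, which per the file headers hold a log2 fold change, a q-value and a signal each for ASO and control. For the members these signals were near the group means in A549 but below them in NCI-H460. There RALA with candidate 42 ASO5 has a signal of 16.9, against a group mean of 25.4 TPM.

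Fold changes and tests were computed with R 4.3.3 and limma 3.58.1 on log2(TPM + 0.5), over genes averaging at least 1 TPM in the libraries of a fit. All 5 groups of a line entered 1 fit, with empirical Bayes moderation and a trend and with no replicate block. Contrasts between lines used all 25 libraries. All tests were two-sided, p-values were adjusted by Benjamini and Hochberg's method over the genes tested, and an adjusted p under 0.05 counted as a call. The method was tested on simulated data. Depth is unknown, so no counting interval is given; the number of libraries limits the precision. Errors are SD for group means and SE for fold changes.

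The members and the gene lists were chosen with earlier results of these data known. The named genes are the 7 members, of each list the 2 called genes per comparison with the largest fold change and no overlap of the groups, the 5 genes most like RALA, and neighbours of RALA. EXOC4 and REPS1 were given per library after their values were seen, as were MAPK3 and the leave-one-out values of named pathway genes. Some genes that this rule names are not reported here. Sequences, exons and 31-base words come from GENCODE release 29, with Python 3.11.15 and Biopython 1.88.

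Same-numbered libraries were checked for pairing by the correlation of their deviations from group means. In A549 the numbers paired candidate 240 ASO1 (0.17 to 0.41) and ASO3 (0.28 to 0.56) with control, candidate 42 ASO5 with ASO3 (0.13 to 0.41) and candidate 240 ASO3 with ASO1 (0.24 to 0.48), though no label says that a number marks a shared day or culture. No pair of libraries held identical values.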

Additional observations from a re-analysis of the deposited data

Results flagged for a closer look

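The response to candidate 42 ASO3 in A549 minus that in NCI-H460 passed the test of the difference for NRAS (1.05), RALB (0.48) and NF1 (1.32), on the log2 scale. Each of these 3 calls was lost when NCI-H460 control replicate 2 or NCI-H460 candidate 42 ASO3 replicate 1 was left out.

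For BRAF with candidate 240 ASO3, every A549 library lay above the control mean of its line and every NCI-H460 library below it. The difference between the lines was 0.64 on the log2 scale (SE 0.39, 95% interval -0.18 to 1.46) and was not tested. In both lines the libraries overlapped those of control ASO, which ran from 2.35 to 5.17 TPM in A549 and from 3.61 to 4.92 TPM in NCI-H460.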

How the results depend on the processing

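Limits. NCI-H460 has 2 libraries per group, so leaving 1 out assumes that the lone library varies like the others. Library 3 of the A549 control and candidate 240 ASO3 groups widens the spread of NF1, HRAS and BRAF, and library 3 of candidate 240 ASO1 that of NF1. No called value changed its sign under an alternative. Of the alternatives for the main results, 167 kept their call or stayed within 1.5 times, and 16 moved beyond it.

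The replicate block gave 2 member calls in A549 with the candidate 42 ASOs and candidate 240 ASO1, against 0 without it. In NCI-H460 the numbers gave correlations of -0.02 to 0.19, and in A549 0.02 to 0.39 between the candidate 42 ASOs and control. These groups were not marked as paired, though the A549 values overlap those of the groups that were, and no label pairs any of the libraries. The main fits used no block for any group, also not for those marked as paired. Among other members the block lost BRAF between the candidate 42 ASOs in NCI-H460 (limma adjusted p 0.0572) and added BRAF to the difference of responses to candidate 42 ASO3 (0.0423). No block could be fitted between lines. Member calls between ASOs of a candidate numbered 5, and 2 with no filter on low values, 3 with median-of-ratios scaling and 2 with the compared groups alone. Calls for the difference of responses between lines numbered 3, and 1 with median-of-ratios scaling and 0 with the 4 groups alone. With 1 library left out, member calls ranged from 0 to 0 in A549, from 2 to 7 in NCI-H460 (5 with all libraries), from 2 to 5 between ASOs, from 1 to 4 between lines under control ASO (3 with all libraries, RALA among them) and from 0 to 3 for the difference of responses. The counts between lines under control ASO take in RALA, whose difference is a description and is left out of that test. With all libraries the tested calls there were those of RALB and HRAS, and nothing is read from the range. The fold change of RALA with candidate 240 ASO3 ranged from -2.59 to -2.20 in A549 and from -1.69 to -1.13 in NCI-H460. The causes were not tested.

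Summed over the 8 comparisons of an ASO with control, 11263 genes were called, and 6554 with the compared groups alone; the pathway lists gave 77, and 48 in that fit. With 1 library left out these sums ran from 7857 to 12406 and from 54 to 85. In A549, genes called numbered 1482 (candidate 42 ASO3), 563 (candidate 42 ASO5) and 2036 (candidate 240 ASO3), against 3112, 1533 and 3696 under the block and 762, 119 and 665 with the compared groups alone. In NCI-H460 they numbered 6332 with candidate 42 ASO3, and 4088 with the compared groups alone. They numbered 780 with candidate 240 ASO3, and 373 with no filter and 76 to 392 with 1 library left out. With candidate 42 ASO5 they numbered 70, and 42 with equal sums and 0 with any library left out. Between the candidate 42 ASOs they numbered 1570 in A549, and 3152 under the block, and 4588 in NCI-H460, and 1922 with those groups alone. For candidate 240 ASO1 there were 0 in both lines by limma (267 and 493 at an unadjusted p under 0.05 in A549 and NCI-H460), and 5 and 44 with no filter.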
